A study of Mus musculus with 16 samples.

Results

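Matrix metalloproteinases (Mmp genes), ADAMTS proteases (Adamts genes) and tissue inhibitors of metalloproteinases (Timp genes) were followed across sorted mouse pancreas macrophages. Members were all genes that the array's own annotation names Mmp, Adamts or Timp followed by a number, with control spots left out. That rule found 46 genes (23 Mmp, 19 Adamts and 4 Timp) on 64 probes, of 31044 genes on the array, and for the 18 genes with several probes the brightest was used. Of the 46 members, 37 passed the filter on dim probes and were tested (18 Mmp, 15 Adamts and 4 Timp). The other 9 were Adamts4, Adamts7, Adamts15, Adamts18, Mmp7, Mmp10, Mmp15, Mmp20 and Mmp21. Adamts7, Mmp10, Mmp15, Mmp20 and Mmp21 were not well above background on any array, and 18 members were well above background on all 16.

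The samples are macrophages of female C57/B6 mice aged 8 to 10 weeks, isolated from tumors of the pancreas or from normal pancreas by cell sorting and split by a yellow fluorescent protein (YFP). There were 4 groups: tumor YFP+ (n = 5), tumor YFP- (n = 5), normal YFP+ (n = 3) and normal YFP- (n = 3). The design text names wild-type mice, the KPC pancreatic cancer model and FLT3-CRE/LSL-YFP mice, in which Cre driven from the Flt3 gene of blood progenitors switches YFP on permanently. The treatment text instead speaks of implantation, the genotype is not stated for any sample, which leaves the tumor model unknown here. The number in a sample title was taken to be the mouse, which the labels do not state, and each number occurs once in a YFP+ and once in a YFP- sample. Where that reading is wrong, the p-values measure only the spread between these samples.

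Metalloproteinases cut proteins with a catalytic zinc ion. Mmp enzymes cleave collagens, elastin and basement membrane, and many leave the cell as inactive precursors that other proteases must clip. Adamts enzymes bind the matrix through thrombospondin repeats and include processors of procollagen and cleavers of aggregating proteoglycans. Timp proteins block the active site, with Timp3 held in the matrix and active against ADAMTS enzymes as well. In tumors such enzymes come from macrophages, neutrophils, fibroblasts and epithelium. Macrophages are the classical source of Mmp12, the macrophage elastase, and fibroblasts of Timp3 and several Adamts genes.

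Of the 10 clustered Mmp genes of chromosome 9, 8 share a promoter feature that the choice of members did not use. Promoters with and without it are shown so that they can be set beside the RNA levels. The chosen probes of 10 members lie within 415 kb of chromosome 9 on genome build mm9, from 7282762 to 7697700, in the order Mmp13, Mmp12, Mmp1b, Mmp3, Mmp1a, Mmp10, Mmp8, Mmp27, Mmp20 and Mmp7. The AP-1 motif TGANTCA, which reads the same on both strands, was searched in the RefSeq promoter windows of build GRCm38.p6, each 250 bases before to 50 after a start. Promoters were matched for 32 of the 46 members (35 windows). The motif was found in 8 of the 35 windows (22.9%), against 2565 of 32851 windows (7.81%) of all genes, and all 8 belong to the chromosome 9 genes. The 100 bases before the start are given 5′ to 3′ with the motif in capitals, for 5 genes that hold it and for Mmp8, whose window does not.
Mmp13 (chr9:7272414-7272513, plus strand): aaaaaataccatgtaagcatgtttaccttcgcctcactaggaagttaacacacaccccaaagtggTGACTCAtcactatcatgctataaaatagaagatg
Mmp12, the second of its 2 starts (chr9:7347274-7347373, plus strand): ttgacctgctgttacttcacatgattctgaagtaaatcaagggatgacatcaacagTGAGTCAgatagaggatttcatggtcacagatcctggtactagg
Mmp1b (chr9:7388027-7388126, minus strand): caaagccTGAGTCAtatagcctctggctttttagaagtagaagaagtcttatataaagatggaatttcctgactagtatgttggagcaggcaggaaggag
Mmp3 (chr9:7445722-7445821, plus strand): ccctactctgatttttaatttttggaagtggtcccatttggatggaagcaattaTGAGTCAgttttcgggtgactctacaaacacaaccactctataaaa
Mmp10 (chr9:7502242-7502341, plus strand): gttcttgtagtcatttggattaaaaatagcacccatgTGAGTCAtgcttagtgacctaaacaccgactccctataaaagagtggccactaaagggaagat
Mmp8 (chr9:7558329-7558428, plus strand): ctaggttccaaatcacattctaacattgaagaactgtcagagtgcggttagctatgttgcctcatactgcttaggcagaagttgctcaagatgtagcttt
The other carriers were Mmp1a, Mmp7 and Mmp20. Mmp7 and Mmp12 each also had a window without the motif. The first base of the motif lay 35 bases before the start in Mmp13, 44 in Mmp12, 46 in Mmp3, 63 in Mmp10 and 93 in Mmp1b. A match to these letters is a description and shows no binding.

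Array signal is given as log2 of the red processed signal minus the array's 75th percentile, so that 0 stands for that percentile and a step of 1 for a doubling. The share of spots well above background was 64.9% to 75.4% per array, and 14.6% to 24.1% lay at the scanner software's surrogate value. All 10 macrophage markers (among them Csf1r, Adgre1 and Cd68) were well above background on every array. Their summed signal, as a multiple of the 75th percentile, ran from 246 to 523 over the 16 arrays. In tumors Adgre1 fell in both populations and Lyz2 in YFP+ samples, and the other 8 did not pass in any comparison. Markers of other cells differed between groups and are set beside the results they move with. The number of arrays limits the precision, and the median standard error (SE) of a log2 difference over all genes was 0.27 between the tumor populations and 0.35 between the normal ones. Sample values follow the order of the mouse numbers, 23547, 23548, 23550, 23551 and 23677 for tumor and 23912, 23916 and 23917 for normal pancreas. Genes were tested with limma, adjusted over all 24307 genes, and a gene is said to rise or fall where its adjusted p was under 0.05.

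The first comparison asks how YFP+ and YFP- macrophages of tumors differ. In tumors 7 of the 37 tested members were lower in YFP+ samples and 0 were higher, where 2.41% of all tested genes passed the test, 1.65% lower. Values of the groups did not overlap for 9 of 37 members, against 4.41% of all genes. The 7 were the inhibitor Timp3, the proteases Adamts1, Adamts2, Adamts9 and Adamts12, the stromelysin Mmp3 and Mmp11. The median log2 difference of the 37 members was -0.24, and that of all genes tested was 0. Mmp12, Mmp13, Mmp14 and Mmp8, which rose in tumors against normal pancreas, did not pass the test between the tumor populations.

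Timp3 had the smallest adjusted p of these 7 members. Its log2 signal was -4.33, -4.83, -4.69, -5.15 and -4.01 in tumor YFP+ samples. In tumor YFP- samples it was -0.75, -1.53, -0.58, -1.19 and -1.56. The groups did not overlap, and YFP+ was lower in 5 of 5 mice. The difference was -3.48 ± 0.29 (SE, n = 5, limma adjusted p = 2.21e-05), which is 11.2-fold, and 2 of the 5 YFP+ arrays were not well above background. In a bulk sample, fewer cells of a type and less RNA per cell cannot be told apart.

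**Figure D1:**
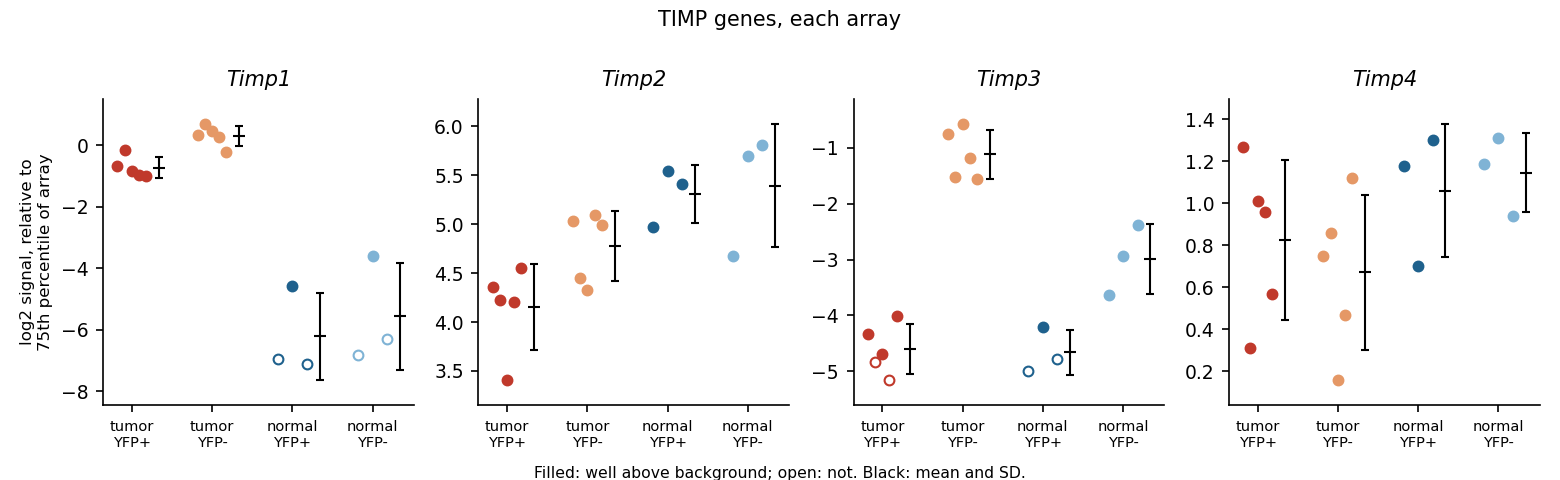
Log2 signal of the 4 Timp genes on each array, relative to the array's 75th percentile (y axis), by group (x axis). Points are arrays in the order of mouse number, open where the probe was not well above background, and black bars are the mean and SD. The lowest tumor value of Timp1 is -1.0 and the highest normal one -3.59, and Timp3 is high in tumor YFP- samples.

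The other inhibitors differed less between the tumor populations. Timp1, a secreted inhibitor that also acts as a growth signal, had log2 signals of -0.69, -0.17, -0.85, -0.98 and -1.0 in tumor YFP+ samples. In their YFP- counterparts it had 0.34, 0.68, 0.45, 0.26 and -0.22. The lowest YFP- and the highest YFP+ value overlapped slightly, and YFP+ was lower in 5 of 5 mice. The difference of -1.04 ± 0.56 did not pass (adjusted p = 0.586). It passed with another background correction, normexp, (-0.92, adjusted p = 0.0233) and without mouse 23916 (-1.04, adjusted p = 0.0217). Mouse 23916 is a normal mouse and enters this test only through the spread shared by the 4 groups. For Timp1 the SD was 0.34 (YFP+) and 0.33 (YFP-) within tumors, but 1.41 and 1.73 within normal pancreas. Timp2, which blocks Mmp2 but also takes part in its activation by Mmp14, differed by -0.63 ± 0.27 (adjusted p = 0.407). Timp4 differed by 0.15 ± 0.22 (adjusted p = 0.904).

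Of the 15 tested Adamts genes, 4 fell in tumor YFP+ samples. Adamts12, a protease that cleaves cartilage oligomeric matrix protein, was at -3.41, -5.64, -7.01, -5.71 and -5.65 in tumor YFP+ samples. In tumor YFP- samples it was at -0.28, -1.52, -0.97, 0.37 and -2.15. No sample of one group reached the other. The difference was -4.57 ± 0.76 (adjusted p = 0.00331), and its size rests on the array floor, since 1 of the 5 YFP+ arrays was well above background. With normexp it was -2.44.

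Adamts2, which trims the amino-terminal propeptide from fibrillar procollagens, was well above background on all 16 arrays. Its signal was -2.81, -3.0, -2.85, -3.37 and -2.96 in tumor YFP+ samples. It was -0.33, -0.93, -0.73, 0.19 and -0.88 in tumor YFP- samples, above every YFP+ value. The difference was -2.46 ± 0.23 (adjusted p = 5.02e-05). Adamts1, which cleaves versican and aggrecan, lay between -5.35 and -4.68 (median -4.91) in YFP+ and between -3.09 and -1.35 (median -2.09) in YFP- samples. The difference was -2.68 ± 0.36 (adjusted p = 8.17e-04), and its size rests in part on the floor, with 2 of 5 YFP+ arrays well above background. Adamts9, another versican-cleaving enzyme, was not well above background on any tumor YFP+ array. In tumor YFP- samples it was at -2.24, -4.75, -3.04, -3.64 and -4.37, above background on 4 of 5 arrays. It was at least 2.40-fold lower in YFP+ samples (fitted difference -3.47 ± 0.53, adjusted p = 0.00175). For this bound the dimmer group was set to the weakest signal that was well above background on its arrays.

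Mmp3, a stromelysin that degrades proteoglycans and activates other Mmp precursors, was at -4.17, -4.43, -4.09, -3.52 and -4.23 in tumor YFP+ samples. In tumor YFP- samples it was at -1.90, -2.66, -2.02, -2.47 and -2.61. The groups were separate, with a difference of -1.76 ± 0.25 (adjusted p = 0.00108). Mmp11, stromelysin 3, lay between -4.47 and -3.40 in the YFP+ and between -2.94 and -1.34 in the YFP- tumor samples (-1.96 ± 0.35, adjusted p = 0.00595). That call ended without mouse 23551 (-1.83, adjusted p = 0.0515). With normexp the sizes were smaller for Timp3 (-2.14), Adamts1 (-1.48), Adamts9 (-1.70) and Mmp3 (-1.14), and all 4 kept the call.

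**Figure D2:**
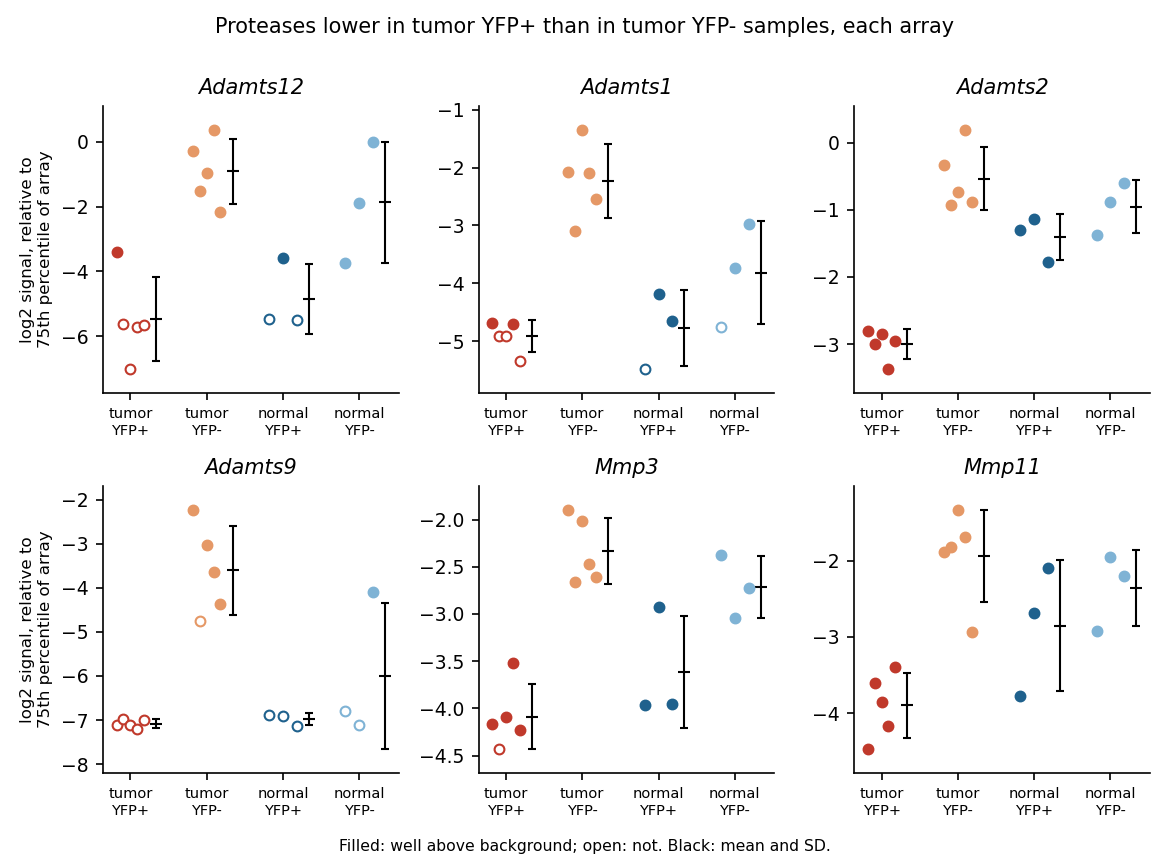
Log2 signal of the 6 proteases that fell in tumor YFP+ against tumor YFP- samples, on each array (y axis, relative to the 75th percentile), by group (x axis). Open points were not well above background, and black bars are the mean and SD. Tumor YFP+ and tumor YFP- values do not overlap in any of the 6 panels.

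Markers of fibroblasts moved with these 7 genes. Of the 10 fibroblast and stellate cell markers, 8 fell in tumor YFP+ samples. Their summed signal, as a multiple of the 75th percentile, was 4.23 to 8.75 in YFP+ and 58.7 to 98.1 in YFP- samples of tumors. For normal pancreas it was 11.1 to 17.4 (YFP+) and 7.38 to 70.4 (YFP-). Of the 10 markers, Lum was not well above background on any of the 5 tumor YFP+ arrays, and Pdgfra and Pdgfrb were each above it on 1. The rest (Col1a1, Col1a2, Col3a1, Dcn, Thy1, Fap and Acta2) were above it on all 5. Mast cell markers fell in 5 of 6 (sum 2.13 to 5.80 against 8.96 to 51.2 in the YFP- samples), ductal epithelial markers in 4 of 7 tested (4.27 to 6.31 against 15.8 to 29.3), acinar markers in 3 of 7 (3.22 to 8.72 against 6.0 to 13.6) and neutrophil markers in 1 of 9 (31.6 to 37.6 against 45.1 to 65.6). Mzb1 rose among the 6 B and plasma cell markers (sum 31.2 to 54.3 against 6.81 to 18.7). The part of these other cells in the member differences was not tested.

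The likeness of expression over the 16 arrays is given as a description. The 5 genes whose log2 signal correlated best with Timp3, of all 24307, were Col1a1 (a collagen I chain, Pearson r = 0.976), Ccn2 (a matricellular growth factor, 0.968), Mgp (matrix Gla protein, 0.960), Unc5b (a netrin receptor, 0.955) and Cyp1b1 (a cytochrome P450, 0.952). The points share the 4 groups, so group differences enter each r. Col1a1, which is also a fibroblast marker here, fell by 4.39 on the log2 scale in tumor YFP+ samples. Within the 11 members compared with each other, Timp3 correlated best with Mmp3 (r = 0.85) and at 0.22 with Mmp14.

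The substrate list of collagens, elastin, fibronectin and aggregating proteoglycans fell in part with the enzymes. Of its 10 tested genes 7 fell in tumor YFP+ samples, by a median over the 10 of -2.08. They were Col1a1, Col1a2, Col3a1, Col4a1, Col4a2, the elastin gene Eln (-4.22 ± 0.55) and the aggrecan gene Acan (-1.06 ± 0.19), of which the first 3 also stand on the fibroblast list. In contrast, 0 passed of the 13 tested inhibitors, activators and clearance genes (3 at unadjusted limma p under 0.05, median -0.24), of the 9 ADAM proteases (1 at that level, median -0.05) and of the 6 ADAMTS-like genes (0 at that level, median -0.12). The background share at unadjusted p under 0.05 was 10.4%.

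The collagenases, gelatinases and the elastase did not pass between the tumor populations. Mmp12 had log2 signals of 6.30, 6.76, 5.93, 6.37 and 6.22 in tumor YFP+ samples. The YFP- samples of the same mice had 6.37, 6.12, 5.99, 6.36 and 6.16. The groups overlapped (difference 0.12 ± 0.28, adjusted p = 0.943). Mmp14, the membrane-bound collagenase that activates Mmp2, differed by 0.27 ± 0.20 (adjusted p = 0.754). Mmp13 (collagenase 3) differed by 0.40 ± 0.31 (adjusted p = 0.761), Mmp8 (neutrophil collagenase) by -0.24 ± 0.45 (adjusted p = 0.926), Mmp9 (gelatinase B) by 0.53 ± 0.76 (adjusted p = 0.904) and Mmp19 by 0.31 ± 0.48 (adjusted p = 0.908). Within mice Mmp9 was higher in the YFP+ sample in 5 of 5, by 0.27 to 0.82. The tumor groups did not overlap for the gelatinase A gene Mmp2, at -2.71 to -1.84 in YFP+ and -1.74 to -1.16 in YFP- samples. Its difference of -0.95 ± 0.56 did not pass (adjusted p = 0.639), though YFP+ was lower in 5 of 5 mice. That SE rests on a spread shared by the 4 groups. For Mmp2 the SD was 0.36 (YFP+) and 0.23 (YFP-) within tumors, but 1.33 and 1.83 within normal pancreas. Leaving out mouse 23912, a normal mouse, changed only the shared spread, and the tumor difference then passed (-0.95, adjusted p = 0.0473). Adamts5, an aggrecan-cleaving enzyme, differed by 0.10 ± 0.32 (adjusted p = 0.961), and Adamts4 was not tested, being above background on 2 tumor YFP- arrays only.

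The comparison of the YFP populations in normal pancreas asks how they differ without a tumor. No member passed there (0 of 37, limma), where 0.0206% of all genes did. An unadjusted limma p under 0.05 was reached by 8 members, against a background of 7.65%, and the groups did not overlap for 4 of 37, against 13.3% of all genes. The median difference of the members was -0.32 and that of all genes -0.11, which was -0.02 with quantile normalization. Timp3 was at -4.99, -4.21 and -4.77 in YFP+ samples and at -3.64, -2.94 and -2.39 in YFP- samples of normal pancreas. The groups did not overlap, and the difference was -1.66 ± 0.37 (adjusted p = 0.131), with 1 of 3 YFP+ arrays well above background. Adamts12 differed by -2.98 ± 0.97 (adjusted p = 0.364), from 1 of 3 YFP+ arrays above background.

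Some Mmp genes had higher values in normal YFP+ samples. Mmp12 was at 3.57, 3.10 and 3.33 there and at 3.01, 1.22 and 1.43 in normal YFP- samples, again with no overlap. The difference was 1.45 ± 0.36 (adjusted p = 0.173). Mouse 23912 supplied the high YFP- value, and without it Mmp12 passed (1.89, adjusted p = 0.00570), as did Mmp2 (-1.99, adjusted p = 0.0245). Over all genes the calls without that mouse went from 5 to 227. The same YFP- sample also had the lowest fibroblast marker sum of its group, 7.38 against 38.8 and 70.4. Mmp25, a membrane-anchored enzyme of leukocytes, differed by 2.21 ± 0.90 (adjusted p = 0.555) and Mmp17, another anchored enzyme, by -1.67 ± 0.97 (adjusted p = 0.760).

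**Figure D3:**
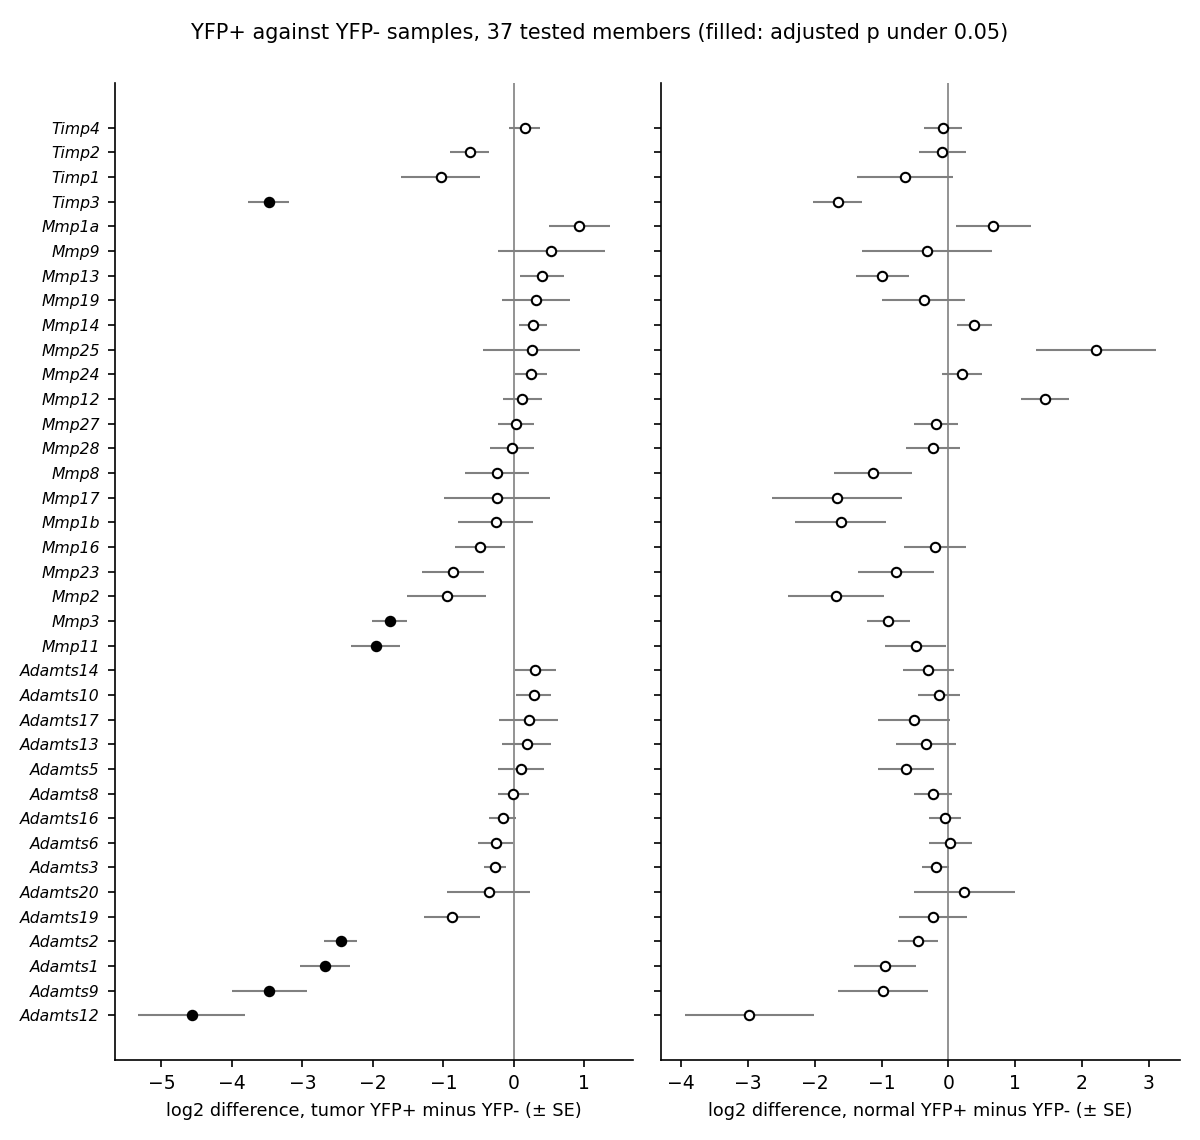
Log2 difference of YFP+ minus YFP- samples (x axis) for the 37 tested members (y axis), in tumors on the left and in normal pancreas on the right, with the standard error as bars. Filled points passed the test, 7 in tumors and 0 in normal pancreas.

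Whether the YFP difference itself depended on the tissue was tested as an interaction, the tumor difference minus the normal one. No member passed (0 of 37, limma), where 0.103% of all genes did, and 7 had an unadjusted p under 0.05, against a background of 5.95%. Adamts2 came nearest, at -2.02 ± 0.38 (adjusted p = 0.0716). Timp3 had -1.82 ± 0.47 (adjusted p = 0.283), Adamts1 -1.73 ± 0.59 (adjusted p = 0.564), Adamts12 -1.59 ± 1.23 (adjusted p = 0.921) and Mmp25 -1.96 ± 1.13 (adjusted p = 0.894). The 7 tumor calls are thus not shown to differ from the normal tissue. Without mouse 23912, Mmp12 passed (-1.77, adjusted p = 0.0417), where calls over all genes went from 25 to 43.

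The next comparison asks how tumor macrophages differ from those of normal pancreas among YFP+ samples. There 12 of 37 members changed, 8 higher and 4 lower in tumors, where 12.3% of all genes passed, 5.73% higher and 6.52% lower. The 8 that rose were Timp1 and the proteases Mmp12, Mmp13, Mmp14, Mmp8, Mmp2, Mmp1b and Mmp19. The 4 that fell were Timp2, Adamts2, Adamts3 and Adamts10. Among YFP- samples 12 of 37 changed as well, 10 higher and 2 lower, against 16.1% of all genes, 7.62% higher and 8.46% lower. They were Timp1, Timp3, Mmp12, Mmp13, Mmp14, Mmp8, Mmp2, Mmp25, Adamts1 and Adamts9, and, lower, Adamts10 and Adamts14. Tumor and normal values did not overlap for 14 of 37 members in YFP+ samples (22.2% of all genes) and for 12 of 37 in YFP- samples (19.8%). The median difference of the members was -0.21 in YFP+ (all genes -0.07) and 0.10 in YFP- samples (all genes -0.19). The populations had 7 of these genes in common, 58.3% of either set, with Timp1, Mmp2, Mmp8, Mmp12, Mmp13 and Mmp14 higher in both and Adamts10 lower in both.

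Among the inhibitors, Timp1 was at -6.95, -4.59 and -7.11 in YFP+ samples and at -6.82, -3.59 and -6.29 in YFP- samples of normal pancreas. Only mouse 23916 had values well above background there, in both of its samples, while all 10 tumor arrays did, at the values given above. Timp1 rose by 5.48 ± 0.64 in YFP+ (44.7-fold, adjusted p = 6.27e-05) and 5.87 ± 0.64 in YFP- samples (58.5-fold, adjusted p = 2.80e-05). These sizes depend on the floor, and over the alternatives they were as small as 2.80 and 3.46. Timp2 ran the other way in YFP+ samples. It was at 4.36, 4.23, 3.41, 4.21 and 4.55 in tumor YFP+ samples against 4.97, 5.54 and 5.41 in their normal counterparts, a fall of 2.23-fold (-1.15 ± 0.31, adjusted p = 0.0231). That call ended without mouse 23916 (-1.04, adjusted p = 0.120) or mouse 23917 (-1.1, adjusted p = 0.0893). In YFP- samples Timp2 differed by -0.62 ± 0.31 (adjusted p = 0.192), and passed as lower without mouse 23912 (-0.98, adjusted p = 0.0448). Its other probe differed by -1.31 in YFP+ and -0.97 in YFP- samples.

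Timp3 followed the tissue in YFP- samples, where it rose by 1.87 ± 0.34 (adjusted p = 0.00152), and differed by 0.05 ± 0.34 in YFP+ samples (adjusted p = 0.953). Among YFP+ samples it was well above background on 3 of 5 tumor and 1 of 3 normal arrays, so the floor could hide a change there. Whether the tissue effects of the populations differ is the interaction given above, which did not pass. Of the fibroblast markers 3 of 10 rose in tumor YFP- samples (Acta2, Col1a1 and Pdgfrb), and in YFP+ samples Acta2 rose and Dcn fell. Their part in the Timp3 difference was not tested. Timp4 differed by -0.24 ± 0.25 in YFP+ (adjusted p = 0.655) and -0.47 ± 0.25 in YFP- samples (adjusted p = 0.223).

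Mmp12 had all of its tumor values, from 5.93 upwards, above all of its normal ones, which reached 3.57. It rose by 2.99 ± 0.32 in YFP+ (7.93-fold, adjusted p = 3.10e-05) and 4.31 ± 0.32 in YFP- samples (19.9-fold, adjusted p = 7.23e-07). The other probe of Mmp12 was above background on 3 of 16 arrays and correlated with the chosen one at r = 0.74. With the mean of both probes the difference in YFP- samples was 2.61. Of all genes, those most like Mmp12 over the 16 arrays were Csf2rb (the shared beta chain of cytokine receptors, r = 0.993), Cd300lf (a myeloid receptor, 0.986), Nr4a3 (a nuclear receptor, 0.986), an unnamed probe (0.985) and the chemokine gene Ccl17 (0.983). Here too the points share the 4 groups.

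Mmp13 and Mmp8, both collagenases, rose in both populations. Mmp13 was at -0.63, -0.28, -0.85, -0.75 and -0.08 in tumor YFP+ samples, and at -0.72, -0.45, -1.34, -1.20 and -0.90 in tumor YFP- samples. In normal pancreas it was at -5.66, -4.15 and -4.32 in YFP+ and -4.42, -3.27 and -3.45 in YFP- samples, and no normal value came near a tumor value. The differences were 4.19 ± 0.36 (18.3-fold, adjusted p = 3.00e-06) and 2.79 ± 0.36 (6.94-fold, adjusted p = 9.83e-05). With normexp the size in YFP+ was 2.57. Mmp8 was at -1.21 to 0.52 in the YFP+ and at -0.75 to 0.72 in the YFP- tumor samples. It was not well above background on any normal YFP+ array, and so was at least 19.8-fold higher in tumor YFP+ samples (fitted 5.09 ± 0.51, adjusted p = 1.68e-05). The bound holds for the background handling used here, since the fitted size was as small as 2.85 over the alternatives. In YFP- samples Mmp8 rose by 4.19 ± 0.51 (adjusted p = 6.83e-05), from 2 of 3 normal arrays above background, and with normexp by 2.71.

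Mmp14 had little spread within its groups. It was at 1.72, 2.05, 1.44, 1.63 and 1.80 in tumor YFP+ samples, and at 1.53, 1.66, 1.20, 1.81 and 1.1 in tumor YFP- samples. In normal pancreas it was at -1.88, -1.75 and -1.34 in YFP+ and -2.49, -2.07 and -1.58 in YFP- samples, separate from the tumor values. It rose by 3.38 ± 0.23 (10.4-fold, adjusted p = 3.71e-07) and 3.50 ± 0.23 (11.4-fold, adjusted p = 2.34e-07). Mmp2, the gelatinase it activates, was above background on 1 of 3 normal YFP+ and 2 of 3 normal YFP- arrays. Mmp2 rose by 3.09 ± 0.65 in YFP+ (adjusted p = 0.00512) and 2.36 ± 0.65 in YFP- samples (adjusted p = 0.0223). With normexp the sizes were 1.38 and 1.43. The YFP- value was 1.33 without mouse 23912, and the call ended without mouse 23548 (2.31, adjusted p = 0.0536), without mouse 23551 (2.34, adjusted p = 0.0547) and with the slide as a block (2.12, adjusted p = 0.0558).

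Mmp9, the other gelatinase, varied widely within groups. It was at 2.03, 1.24, -0.46, 1.04 and 1.98 in tumor YFP+ samples and at -2.81, 0.37 and -0.76 in normal YFP+ samples, and at 1.52, 0.55, -0.83, 0.77 and 1.16 against -3.04, 0.69 and 0.11 in YFP- samples. Tumor mouse 23550 and normal mouse 23912 were the low ones in both of their samples. The differences of 2.24 ± 0.88 (adjusted p = 0.126) and 1.38 ± 0.88 (adjusted p = 0.305) did not pass.

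**Figure D4:**
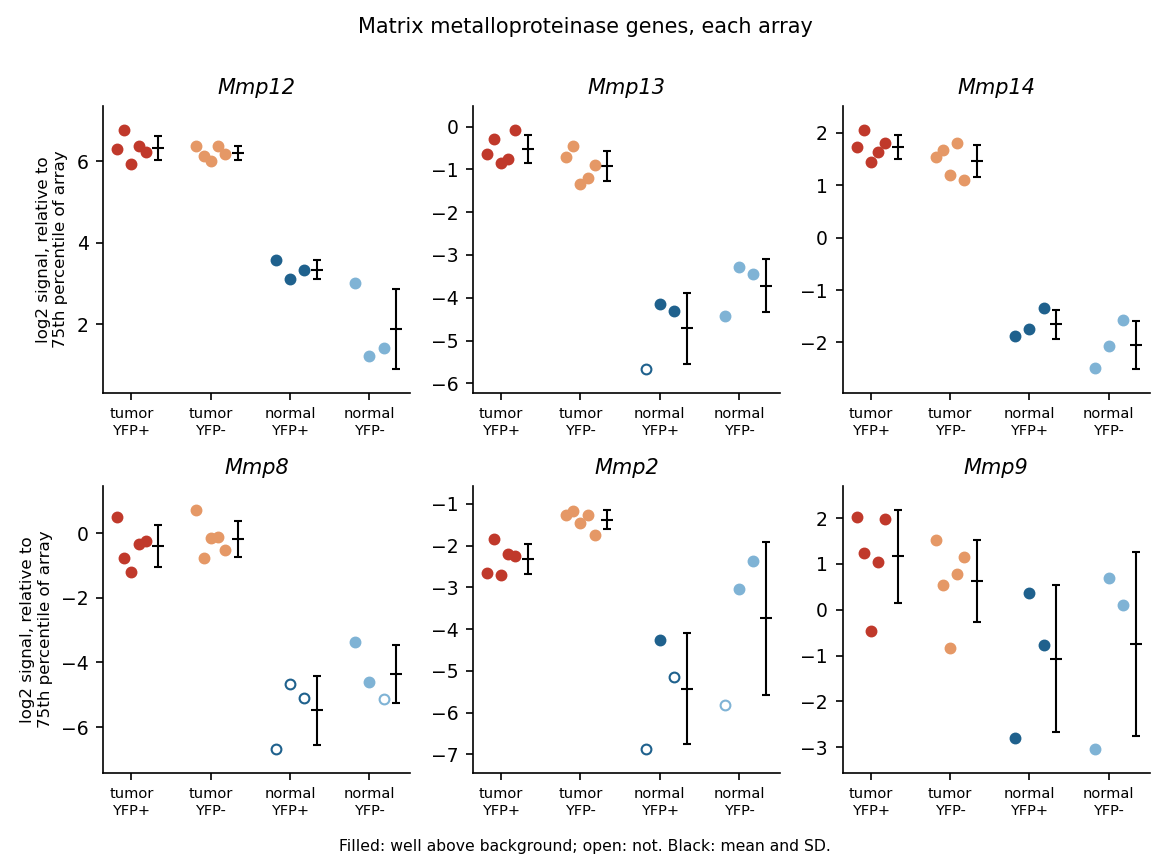
Log2 signal of 6 Mmp genes on each array (y axis, relative to the 75th percentile), by group (x axis). Open points were not well above background, and black bars are the mean and SD. Mmp12, Mmp13, Mmp14, Mmp8 and Mmp2 separate tumor from normal samples in both populations, and Mmp9 values overlap.

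Mmp1b, one of the mouse counterparts of interstitial collagenase, was not well above background on any normal YFP+ array and on 4 of 5 tumor YFP+ arrays. It was at least 1.88-fold higher in tumor YFP+ samples (fitted 2.6 ± 0.61, adjusted p = 0.0110), a bound that holds only for the background handling used here. The call ended with normexp (0.70, adjusted p = 0.105), without mouse 23912 (2.46, adjusted p = 0.0557) and without mouse 23916 (2.53, adjusted p = 0.0539). In YFP- samples Mmp1b differed by 1.25 ± 0.61 (adjusted p = 0.182), and passed with normexp (0.85, adjusted p = 0.0409) and without mouse 23551 (1.52, adjusted p = 0.0204). Mmp19 rose in YFP+ samples by 2.06 ± 0.55 (adjusted p = 0.0227), a call lost with normexp (0.64, adjusted p = 0.185) and when single mice were left out, 23548 (1.90, adjusted p = 0.0651), 23677 (2.06, adjusted p = 0.0528), 23912 (1.42, adjusted p = 0.148) or 23917 (2.16, adjusted p = 0.0747). In YFP- samples it differed by 1.39 ± 0.55 (adjusted p = 0.104), and passed with the authors' deposited values (1.94, adjusted p = 0.0350) and with quantile normalization (1.94, adjusted p = 0.0348). Mmp25 was at -2.29 to 0.02 in tumor YFP- and at -2.27, -4.38 and -6.42 in normal YFP- samples. It rose there by 3.47 ± 0.80 (adjusted p = 0.00857), though the groups overlapped. That call ended without mouse 23917 (2.44, adjusted p = 0.0651), and with normexp the size was 2.0. Within slides the difference ran from -0.03 to 6.45 and was positive on 2 of 3.

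Neutrophil markers moved with these genes, of which Mmp8, Mmp9 and Mmp25 are also neutrophil products. Of 9 tested neutrophil markers 3 rose in tumor YFP+ samples and 5 in tumor YFP- samples, S100a8, S100a9 and Cxcr2 in both. Their summed signal in YFP+ samples was 31.6 to 37.6 for tumors and 31.1 to 47.5 for normal pancreas, so that the ranges overlapped. Most of this sum was Csf3r, with a mean log2 signal of 4.68 in tumor and 4.90 in normal YFP+ samples, so it says little of the dimmer markers. In YFP+ samples S100a8 had means of -0.35 in tumors and -3.85 in normal pancreas, and S100a9 1.86 and -2.68. Of the 9 markers 6 were higher in tumor YFP+ samples, and Mpo, Elane and Csf3r were lower. In YFP- samples the sum was 45.1 to 65.6 for tumors and 34 to 47.4 for normal pancreas. All 7 acinar cell markers fell in tumors in both populations, from sums of 256 to 711 in normal pancreas to 3.22 to 13.6. Ductal markers rose in 3 of 7 (YFP+) and 5 of 7 (YFP-), mast cell markers in 1 of 6 and 6 of 6, and B and plasma cell markers in 4 of 6 and 3 of 6. The part of these cells in the tissue differences of the members was not tested.

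The Adamts genes changed in both directions between tissues. Adamts2 was at -1.30, -1.13 and -1.78 in normal YFP+ samples, all above the tumor YFP+ values given earlier, and fell by 1.60 on the log2 scale (SE 0.27, adjusted p = 0.00109), or by 1.03 with the mean of its probes. In YFP- samples it differed by 0.42 ± 0.27 (adjusted p = 0.308), but passed with the mean of its probes (1.03, adjusted p = 0.0320). Adamts1 rose in tumor YFP- samples by 1.59 ± 0.42 (adjusted p = 0.0181) and Adamts9 by 2.39 ± 0.61 (adjusted p = 0.0152), and for both the groups overlapped. The call of Adamts1 ended without mouse 23550 (1.37, adjusted p = 0.0521), 23912 (1.13, adjusted p = 0.0731) or 23916 (1.63, adjusted p = 0.0582). That of Adamts9 ended without mouse 23912 (1.99, adjusted p = 0.0859) or 23916 (1.83, adjusted p = 0.123). With normexp the sizes were 1.03 and 1.21. Within single slides both tissue differences changed sign, to -0.12 for Adamts1 and -0.66 for Adamts9 on slide 2.

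Adamts10, a protease linked to fibrillin microfibrils, was lower in tumors in YFP+ (-0.98 ± 0.29, adjusted p = 0.0358) and YFP- samples (-1.40 ± 0.29, adjusted p = 0.00379). Adamts14, a procollagen processor like Adamts2, fell in YFP- samples (-1.46 ± 0.34, adjusted p = 0.00849) and differed by -0.86 ± 0.34 in YFP+ samples (adjusted p = 0.125). With the slide as a block the YFP+ difference of Adamts14 passed (-1.16, adjusted p = 0.00164). Its other probe, well above background on all 16 arrays, correlated with the chosen one at r = 0.14. Fitted without a block, that probe differed by 1.22 in YFP+ and by -0.08 in YFP- samples. Adamts3, the third procollagen processor, fell in YFP+ samples by 0.61 on the log2 scale (SE 0.18, adjusted p = 0.0379). With the mean of a gene's probes Adamts10 had -0.59 (adjusted p = 0.223) and -0.73 (adjusted p = 0.0999) and Adamts14 -0.77 (adjusted p = 0.251). The other probe of Adamts10 correlated with the chosen one at r = 0.03 over the arrays. The YFP+ call of Adamts10 was also lost without any of 6 single mice (-1.09 to -0.79), that of Adamts14 without mouse 23916 (-1.35, adjusted p = 0.0584), and that of Adamts3 under 11 of 15 alternatives (-0.41 with normexp, adjusted p = 0.283). Adamts5 differed by 0.20 ± 0.37 in YFP+ (adjusted p = 0.832) and -0.54 ± 0.37 in YFP- samples (adjusted p = 0.348).

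**Figure D5:**
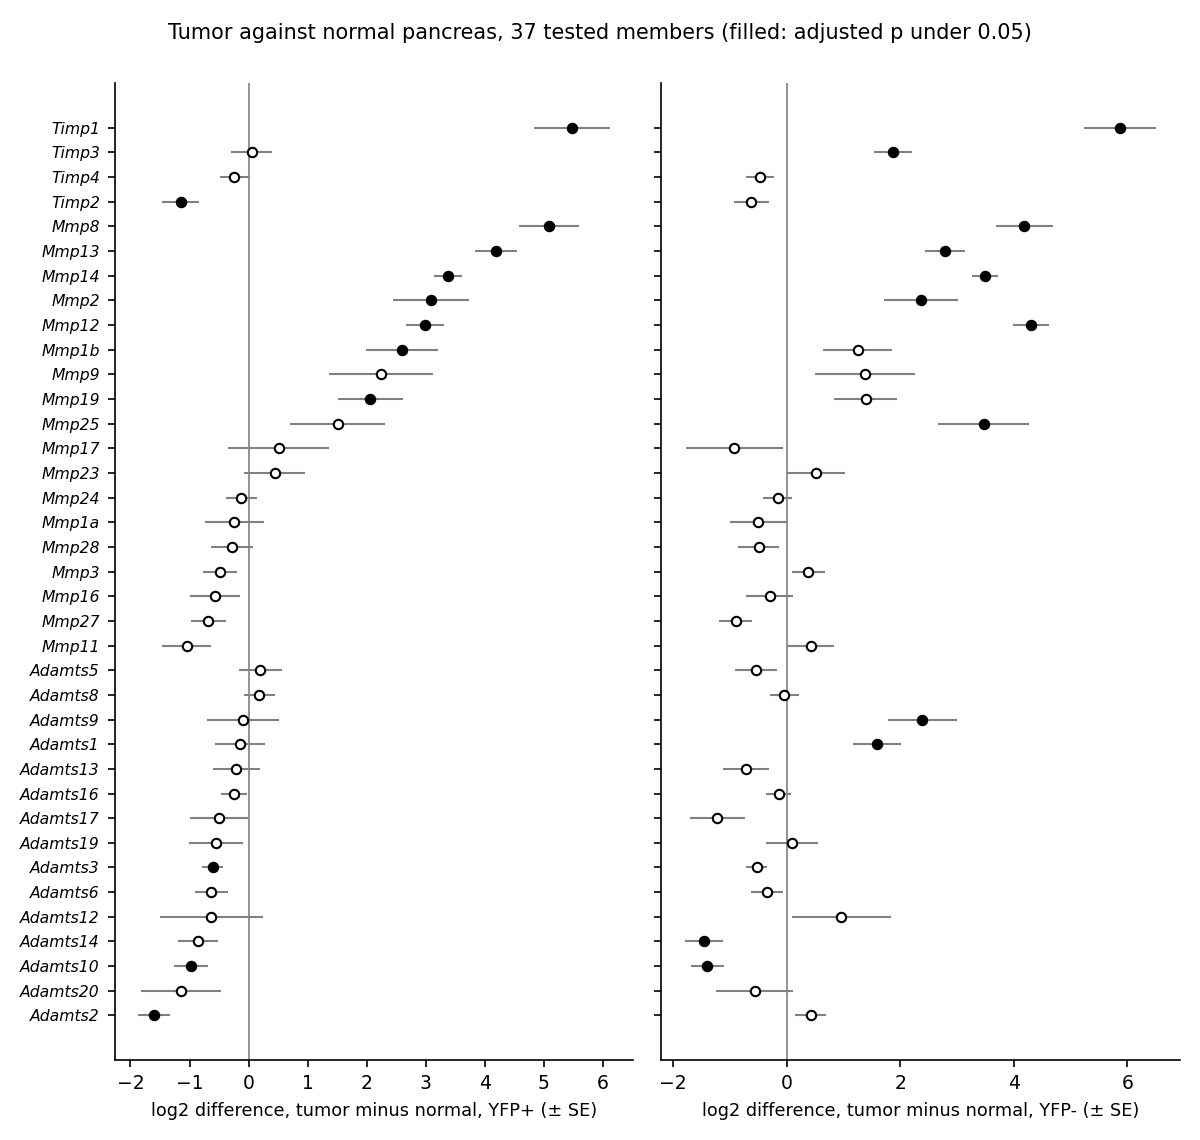
Log2 difference of tumor minus normal samples (x axis) for the 37 tested members (y axis), in YFP+ samples on the left and in YFP- samples on the right, with the standard error as bars. Filled points passed the test, 12 in each population, with Timp1 and Mmp8 farthest to the right in YFP+ samples.

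Of the 13 tested inhibitors, activators and clearance genes, 5 rose in tumors among YFP+ samples (5.73% of all genes did), 6 among YFP- samples (7.62% of all genes), and 0 fell. The rest of the 13 did not pass. Plaur, the urokinase receptor, rose by 1.75 ± 0.31 in YFP+ and 3.14 ± 0.31 in YFP- samples (adjusted p = 0.00137 and 8.76e-06), and Plat, the tissue plasminogen activator, by 3.11 ± 0.86 and 4.68 ± 0.86. Bsg, the inducer of Mmp expression known as basigin, and Lcn2, which binds Mmp9, rose in both, and Furin, which clips the precursor of Mmp14, rose in YFP- samples (1.01 ± 0.19). Of the 9 ADAM proteases Adamdec1 rose in both (6.45 ± 0.18 and 6.04 ± 0.18) and Adam8 in YFP- samples, while Adam15 and Adam33 fell in both and Adam19 in YFP- samples. Of the 6 ADAMTS-like genes Adamtsl4 rose in both and Adamtsl5 fell in YFP- samples. Of the 10 substrates the versican gene Vcan rose in both (3.38 ± 0.55 and 3.11 ± 0.55), and Col1a1 and Fn1 rose in YFP- samples.

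Along the chromosome 9 cluster, Mmp13 and Mmp12, which hold TGANTCA, rose in tumors in both populations, and Mmp1b, which holds it too, in YFP+ samples. Mmp8, whose window lacks it, rose in both populations. Mmp3, which holds it, differed between tumor and normal samples by -0.48 ± 0.29 in YFP+ (adjusted p = 0.353) and 0.38 ± 0.29 in YFP- samples (adjusted p = 0.381) and fell in tumor YFP+ against tumor YFP- samples. Mmp1a differed by -0.24 ± 0.50 and -0.50 ± 0.50 between tissues. Mmp10 and Mmp20, both with the motif, were not well above background on any array, and Mmp7 was above it on 2 of 16. Mmp27, whose window also lacks the motif, differed by -0.68 ± 0.29 in YFP+ and -0.90 ± 0.29 in YFP- samples (adjusted p = 0.170 and 0.0505). In YFP- samples it passed as lower in tumors with the slide as a block (-0.77, adjusted p = 0.0358) and with the mean of a gene's kept probes (-0.90, adjusted p = 0.0484). Mmp27 also passed there without mouse 23677 (-1.03, adjusted p = 0.0341) or mouse 23917 (-1.14, adjusted p = 0.0429). Whether the motif goes with the RNA level was not tested.

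The members not named with values above did not pass in any comparison of the main fit. They were Adamts6, Adamts8, Adamts13, Adamts16, Adamts17, Adamts19, Adamts20, Mmp16, Mmp23, Mmp24 and Mmp28. Adamts8, Adamts13, Adamts16, Mmp23, Mmp24 and Mmp28 were above background on all 16 arrays. Under alternatives, Adamts20 passed as lower in tumors among YFP+ samples with the slide as a block. Among YFP- samples Adamts17 passed as lower in tumors without mouse 23547 or mouse 23677, and Mmp24 without mouse 23912.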

How the data were processed

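RNA of 16 sorted samples was hybridised, 1 array each, to 1-colour Agilent arrays, and the intensity values are the red (Cy5) processed signal of Agilent Feature Extraction 11.5.1.1, per the submitters' processing notes and the file headers. Per the file headers this intensity is background-subtracted. A deposited log2 table, whose sorted columns are equal between arrays within 0.0069 and which is thus quantile-normalized, served as an alternative. Here the log2 intensity was taken relative to each array's 75th percentile, over 43020 spots other than controls. Outlier spots were left out and the spots of a probe averaged. A probe was tested when well above background on at least 3 of 16 arrays, and the brightest probe stood for a gene (24307 genes). No spot was saturated. Probe positions are mm9.

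limma 3.58.1 in R 4.3.3 (lmFit, contrasts.fit and eBayes) fitted 4 group means over all 16 arrays, without a block, two-sided, and p-values were adjusted over all genes (Benjamini-Hochberg, threshold 0.05). Each gene had a single estimate of spread shared by the 4 groups, so an SE between tumor groups also holds the spread of the normal samples. The script was tested on simulated data. Alternatives were normexp background correction (offset 50), quantile normalization, the deposited table, no filter, the mean of a gene's probes, the slide (4 slides) or the replicate number as a block, and leaving out each mouse. Same-numbered samples of a mouse deviated from their group means with r = 0.314, 0.224, 0.0568, -0.188 and -0.29 in tumors and 0.274, 0.134 and -0.0154 in normal pancreas. The main fit did not pair the samples by number, since the labels state no paired test. These r are over all genes and do not settle the pairing for a single gene. Counts of mice by direction are descriptions without a test.

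Genes named with values are the members that passed in any comparison, the 4 Timp genes, listed proteases known from macrophages or tumor stroma, and the 5 members with the largest differences per comparison among those well above background in a whole group. Other members are named where a count of them is given. The members, gene lists and markers were chosen with earlier results of these data known. Ly6g is not on the array, and Tfpi2, Bcan and Sox9 were not tested. A gene of the list of inhibitors, activators and clearance genes is not reported here.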

Additional observations from a re-analysis of the deposited data

Results flagged for a closer look

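Mmp13 had a higher value in the YFP+ than in the YFP- sample in 5 of 5 tumor mice and a lower one in 3 of 3 normal mice. Neither difference passed in limma, at 0.40 in tumors (adjusted p = 0.761) and -0.99 in normal pancreas (adjusted p = 0.541). The difference between the tissue effects was 1.40 ± 0.50 (SE) as an interaction in limma and did not pass (adjusted p = 0.632). Within slides the normal difference was -2.22 on slide 2 and 0.11 on slide 3. The lowest normal YFP+ value was not well above background. The tumor YFP+ and tumor YFP- groups of 24 tested members were searched, those that the naming rule picked. In none of these 48 groups of 5 samples did 1 sample stand apart from the rest by Dixon's criterion (critical value 0.71), where chance gives about 1 in 20.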

How the results depend on the processing

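Of 31 calls of a member in a comparison, 19 kept their direction and their side of the threshold under all 15 alternatives, 12 lost the call under at least 1, and 0 reversed. The counts of members past the threshold, 7, 0, 12, 12 and 0, stayed within 1.5 times under every alternative except 1. Without mouse 23912 the count was 2 between the normal populations and 1 for the interaction (227 and 43 over all genes, against 5 and 25), and over the mice left out it ran from 0 to 2 and from 0 to 1. The replicate block changed none of the 31 calls and left the 5 counts as they were, with a consensus correlation of 0.0288 within a number. Leaving out mouse 23916 ended 7 calls, mouse 23912 6 and mouse 23917 5. Over all genes, 47.4% of the calls between YFP- tissues were higher in tumors, and 58.2% with normexp. Signal over background is the limit for genes with dim groups, where sizes shrank with normexp.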
